A study of Mus musculus with 12 samples.

Results

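The 39 genes described here make the proteins that copy DNA or that carry a cell from G1 into S phase. They were chosen by name from 41457 genes in each deposited table, with no measured value in the rule, and all 39 were found and passed the filter on low counts in every comparison. They fall into 6 roles: the MCM helicase (Mcm2 to Mcm7, 6 genes), licensing and origin firing (10), polymerases and the fork (11), nucleotide supply (4), chromatin on new DNA (3), and E2F factors with the E cyclins (5). RNA came from mouse CD4+ T cells of spleen and lymph nodes, all C57BL/6, either wild type (WT) or NFATc1/ΔS. Per the study's title, NFATc1, a transcription factor that T cell receptor signals activate, lacks SUMOylation in the second genotype. In which cells the change is present is not given in the sources used here, and reads per gene do not show the SUMO sites, so they check no genotype label. All cells were activated with anti-CD3 and anti-CD28. Th1 cultures held IL-12 and anti-IL-4, Th2 cultures IL-4 and anti-IFN-γ, and Th17 cultures TGFβ, IL-6 and antibodies to both IFN-γ and IL-4. Cells were collected at day 2.5 or 3.5, which gave 12 libraries, 1 for each culture, genotype and day. Th17 cultures also differed in medium (IMDM, against RPMI) and in anti-CD3 (0.25 µg/ml, against 0.5), so what sets Th17 apart cannot be told apart from these. The labels do not state that libraries came from separate animals or cultures, and p values measure only the spread among these libraries.

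In G1, the origin recognition complex, Cdc6 and Cdt1 load the MCM helicase onto origins, which licenses them. Cdc45 and the GINS complex then turn the loaded ring into a moving helicase, and polymerases follow with the sliding clamp PCNA, its RFC loader, and the nuclease and ligase that join lagging strand fragments. E2F factors, freed from retinoblastoma proteins by cyclin-dependent kinases, switch on most of these genes, and cyclin E with Cdk2 drives entry into S phase. Activated T cells divide quickly after a first slow cycle, so RNA of these genes is widely used as a sign of proliferation. In bulk RNA, fewer cells in S phase and less RNA per cell cannot be told apart.

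Libraries held 13417121 to 17774400 gene reads, and the lowest count of any of the 39 genes in any library was 70 (Gins3). The T cell markers (6 of 6 detected in each library) summed to 2164 to 2919 CPM, which are read counts relative to library size, with sizes scaled by TMM. Th1 markers summed to 417.8 to 545.5 CPM in Th1 and to at most 184.7 elsewhere, Th2 markers to 714.7 to 1208 in Th2 and to at most 121.5 elsewhere, and Th17 markers to 84.4 to 178.6 in Th17 and to at most 15.97 elsewhere. The library labelled Th1 WT day 2.5 stood apart: its correlation across genes was 0.9516 to 0.955 with the other Th1 libraries and 0.9623 to 0.9778 with the Th17 libraries. Its NFATc1/ΔS partner, the library labelled Th1 NFATc1/ΔS day 2.5, stood further apart, at 0.8786 to 0.9516 with the other libraries, and correlated more with Th17 at day 3.5 (0.9405 and 0.9446) than with Th1 at day 3.5 (0.923 and 0.9283). It is also the library in which the 39 genes were highest, so results that include Th1 are given with and without these libraries.

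Short stretches of 5 promoters show an E2F-type sequence that some of these genes hold and most of the windows searched do not. RefSeq windows on GRCm38.p6 were matched for 33 of the 39 genes (39 windows), and the 250 bases before each start were searched on both strands for 4 spellings of the E2F-type site, TTTGGCGC, TTTCCCGC, TTTGCCGC and TTTCGCGC, which overlap one another in some promoters. A match was found in 9 of the 39 windows (23.1%, 9 genes), against 611 of 32851 windows of all genes (1.86%). CCAAT, the box bound by NF-Y, was found in 59% of the windows and in 33.8% of all. A match is a description of letters and shows no binding. Mcm5 and Mcm6 are shown because matches on opposite strands overlap there, Cdc6 and Orc1 because they load the helicase, and Rfc3 because its RNA departed from the rest. The Mcm5 and Mcm6 stretches lie upstream of the gene as GENCODE annotates it, that of Cdc6 in an intron and those of Orc1 and Rfc3 in an annotated exon. Each runs 5′ to 3′ on the gene's strand and capitals mark the match.
Mcm5, chr8:75109345-75109374, plus strand: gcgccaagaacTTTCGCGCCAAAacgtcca
Mcm6, chr1:128359797-128359826, minus strand: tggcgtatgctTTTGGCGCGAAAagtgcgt
Cdc6, chr11:98908002-98908031, plus strand: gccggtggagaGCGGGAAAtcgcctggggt
Orc1, chr4:108579416-108579445, plus strand: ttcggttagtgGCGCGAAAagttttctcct
Rfc3, chr5:151651209-151651238, minus strand: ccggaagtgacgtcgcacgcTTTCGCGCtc

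Per length of exon, Pcna was the most abundant of the 39, with a median of 172.7 CPM of exon reads per kilobase of exon over the 12 libraries. Mcm3 (74.18), Mcm6 (73.41) and Rrm2 (72.33) came next on this scale. Ccne2 (3.39), Tyms (3.706) and Gins3 (3.709) were the least abundant. Reads shared with other genes or copies make some levels uncertain: only 12.9% of Fen1 reads, 17.6% of Gins2, 24% of Cdt1, 24.8% of Tk1, 42.2% of Orc1, 43.9% of Ccne2 and 47.1% of Pcna reads were counted as unique.

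The 39 genes moved largely as a block across the 12 libraries. The library labelled Th1 NFATc1/ΔS day 2.5 was the highest for 38 genes, the exception being Rfc3, which was highest in Th2 NFATc1/ΔS at day 3.5. Th17 WT at day 2.5 was the lowest library for 28 genes and Th2 WT at day 2.5 for 6. How many of all genes were highest or lowest in each library was not counted. Together the 39 genes took 0.7564% of reads in the highest library and 0.2556% in Th17 WT at day 2.5. Relative to each gene's own mean over the libraries, the median gene stood at 0.89 (log2) in the highest library, at 0.12 to 0.25 in the other 3 Th1 libraries, at -0.68 and -0.38 in Th17 at day 2.5 and at 0.11 and 0.14 in Th17 at day 3.5. The Th2 medians were -0.42 and -0.20 at day 2.5 and -0.03 and 0.04 at day 3.5. The fold from the lowest to the highest library was widest for Tyms (8.662), Rrm2 (5.781) and Ccne1 (5.166) and narrowest for Pold1 (1.803) and Gins2 (1.808).

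**Figure D1:**
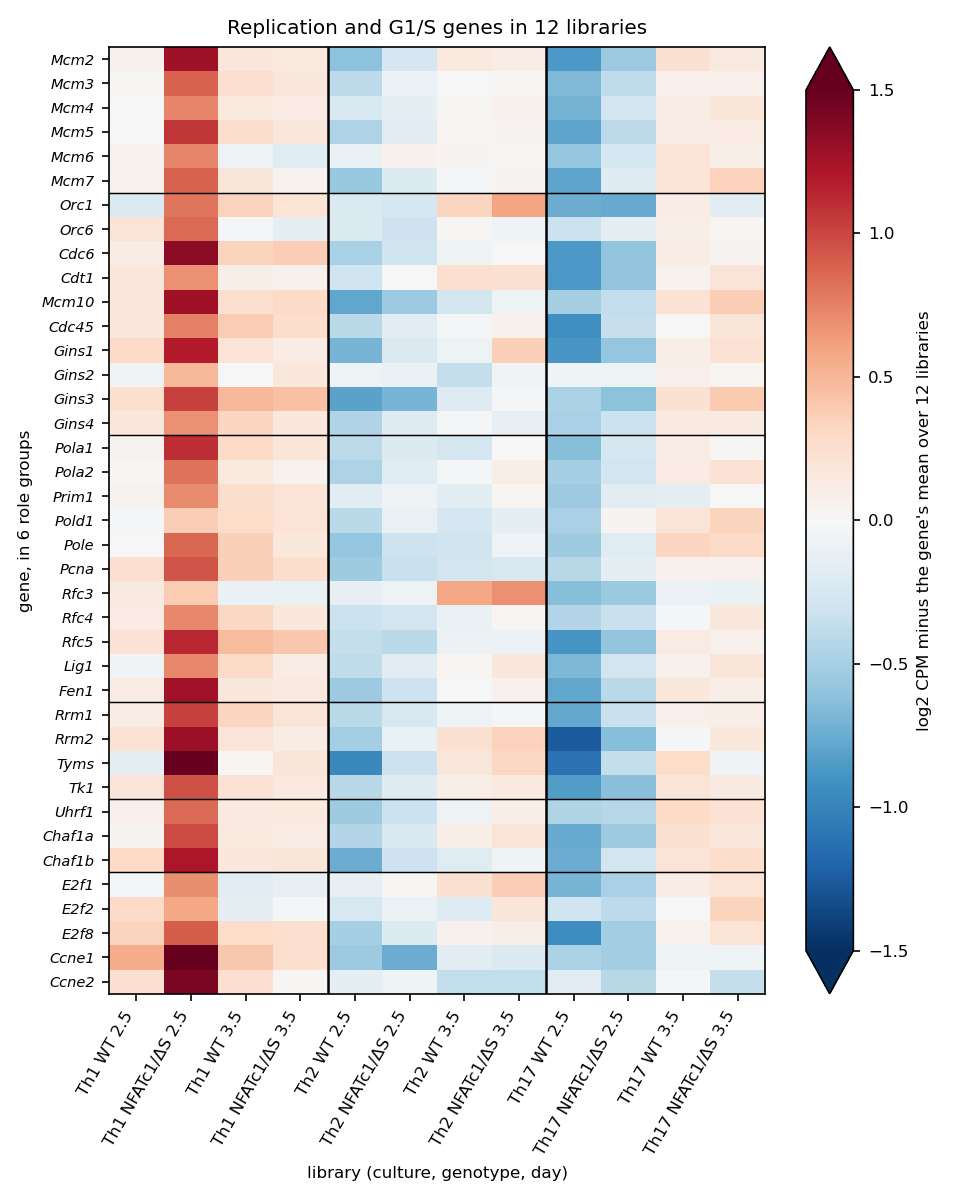
Log2 CPM of each of the 39 genes (rows, grouped by role) minus that gene's mean over 12 libraries (columns, ordered by culture, day and genotype), with colours capped at 1.5 either way. The column of Th1 NFATc1/ΔS at day 2.5 is the darkest red, with a median of 0.89, and the Th17 WT day 2.5 column the darkest blue, with a median of -0.68.

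Values below are CPM and run, in each culture, in the order WT day 2.5, NFATc1/ΔS day 2.5, WT day 3.5 and NFATc1/ΔS day 3.5. Day differences are log2, day 3.5 minus day 2.5, from edgeR's quasi-likelihood fit to the 4 Th2 and Th17 pairs of libraries of the same culture and genotype. They are given ± SE with p adjusted by Benjamini-Hochberg over all genes tested. The 4-pair fit for day was added after seeing the data. With Th1 included, the fit for day to all 6 pairs called 0 of 12329 genes, and so none of the 39. In the 4-pair fit 34 of the 39 genes rose and 0 fell, where 20.8% of all 12415 genes tested rose. The median difference of the 39 was 0.52, and that over all genes in single pairs of these cultures lay between 0.0054 and 0.0384.

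Of the MCM helicase genes, whose 6 products form the ring that unwinds DNA, 5 rose from day 2.5 to day 3.5 in Th2 and Th17. Mcm2 had 167.9, 387, 179.8 and 176.6 in Th1, 104.7, 134.6, 176.9 and 172.6 in Th2, and 88.35, 109.7, 187.9 and 175.6 in Th17. Mcm5 had 196.5, 410.7, 233.7 and 219.8 in Th1, 141.9, 175.6, 198.6 and 201.3 in Th2, and 112.5, 148.7, 210.4 and 212.4 in Th17. In both genes every Th2 and Th17 library of day 3.5 lay above every one of day 2.5, and day 3.5 values of the 3 cultures lay close together. The day difference was 0.72 ± 0.10 (adjusted p = 0.000573) for Mcm2 and 0.52 ± 0.10 (adjusted p = 0.00234) for Mcm5. Mcm7 had 239.5, 426.7, 263 and 240.2 in Th1, 156.1, 201.2, 228.9 and 237.9 in Th2, and 133.5, 201.9, 265.9 and 294.2 in Th17. Its lowest Th1 value lay just above its highest Th2 value, and its day difference was 0.58 ± 0.10 (adjusted p = 0.00208). Mcm6 was the member that did not pass, at 0.30 ± 0.12 (adjusted p = 0.0801): its Th2 values, 317.8 to 355.9, overlapped between the days. Mcm3 and Mcm4 rose by 0.43 each.

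Licensing genes followed the same course. Orc1, the largest subunit of the origin recognition complex, had 23.69, 48.28, 35.1 and 31.78 in Th1, 23.78, 22.97, 34.55 and 41.64 in Th2, and 16.42, 16.27, 29.81 and 24.44 in Th17. Th2 and Th17 libraries did not overlap between days, with a difference of 0.71 ± 0.09 (adjusted p = 0.000189). Cdc6, which loads the helicase with Cdt1, had 37.95, 89.29, 44.53 and 45.57 in Th1, 25, 28.51, 33.5 and 35.35 in Th2, and 19.23, 23.28, 37.92 and 36.34 in Th17. The 4 Th1 values of Cdc6 lay above all 8 others, the lowest (37.95) only just above the highest Th17 value (37.92). Cdt1 had 72.01, 102.9, 67.74 and 66.94 in Th1, 52.14, 64.11, 76.36 and 74.85 in Th2, and 35.23, 42.39, 66.47 and 73.2 in Th17. At day 3.5 its Th2 values were above those of Th1 WT and NFATc1/ΔS. The differences of Cdc6 and Cdt1 were 0.59 ± 0.10 (adjusted p = 0.0015) and 0.61 ± 0.10 (adjusted p = 0.00122). Orc6, another subunit of the origin complex, had 39.67, 61.65, 33.67 and 30.87 in Th1, 29.58, 27.7, 34.76 and 32.8 in Th2, and 27.3, 31.27, 36.73 and 35.09 in Th17. Its Th1 values at day 3.5 were below those at day 2.5 in both genotypes, while it rose in Th2 and Th17 by 0.27.

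Origin firing genes gave the largest and the smallest day differences of the licensing group. Mcm10, a scaffold that helps to activate the loaded helicase, had 43.17, 93.55, 46.35 and 47.21 in Th1, 22.49, 26.44, 31.9 and 36.8 in Th2, and 27.51, 30, 45.13 and 49.97 in Th17. Its 4 Th1 values lay above the 4 Th2 values, and its day difference was 0.61 ± 0.08 (adjusted p = 0.000213). Cdc45, a part of the active helicase, had 57.03, 86.21, 66.57 and 61.06 in Th1, 38.42, 45.65, 50.4 and 53.37 in Th2, and 26.81, 40.15, 51.22 and 57.91 in Th17. Its order was the same, with a day difference of 0.51 ± 0.10 (adjusted p = 0.003).

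The 4 GINS genes encode the ring's other partner and did not share 1 pattern. Gins1 had 20.86, 39.11, 19.63 and 18.49 in Th1, 10.44, 14.62, 16.19 and 21.82 in Th2, and 9.263, 11.34, 18.26 and 19.79 in Th17. Gins3 had 11.15, 19.33, 13.39 and 12.83 in Th1, 5.336, 5.761, 8.236 and 9.321 in Th2, and 6.737, 6.119, 11.06 and 12.43 in Th17. Both rose with day, by 0.74 ± 0.10 (adjusted p = 0.000298) and 0.77 ± 0.12 (adjusted p = 0.000802), and Gins3 stood at 11.15 CPM or more in all Th1 libraries and at 9.321 or less in all Th2 libraries. Gins4 had 40.06, 57.52, 44.73 and 39.8 in Th1, 26.15, 31.09, 34.9 and 32.8 in Th2, and 25.54, 28.58, 39.25 and 39.26 in Th17. It rose as well, at 0.39 ± 0.09 (adjusted p = 0.00605), and its Th1 values did not overlap with Th2. Gins2 had 42.24, 61.84, 43.95 and 48.79 in Th1, 41.47, 40.84, 34.2 and 42.26 in Th2, and 41.68, 41.42, 46.18 and 44.49 in Th17. Apart from the highest Th1 library, Gins2 values lay between 34.2 and 48.79, and its day difference was 0.01 ± 0.08 (adjusted p = 0.949).

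Among polymerase and fork genes, 9 of 11 rose with day, Pcna least among those that passed. Pcna, the clamp that holds polymerases on DNA, had 479.8, 772.5, 515.9 and 483.1 in Th1, 277.5, 319.3, 332.8 and 341.6 in Th2, and 301, 363.5, 420.2 and 420.5 in Th17. All Th1 values lay above all others, and the day difference was 0.26 ± 0.07 (adjusted p = 0.015), a call lost without the Th2 WT pair (adjusted p = 0.0584) or without the Th17 WT pair (0.18, adjusted p = 0.0752). Pold1, the catalytic subunit of lagging strand polymerase delta, had 142.6, 185.6, 174.9 and 166.3 in Th1, 109.1, 133.5, 121.3 and 129.7 in Th2, and 102.9, 148.4, 164.4 and 182 in Th17. It did not pass for day, at 0.27 ± 0.10 (adjusted p = 0.0578), and its Th2 days overlapped. Pole, the catalytic subunit of the leading strand polymerase, had 81.91, 149.2, 105.2 and 91.26 in Th1, 54.58, 65.88, 66.31 and 77.82 in Th2, and 56.42, 72.31, 102.2 and 99.73 in Th17. In Th17 it went from at most 72.31 to at least 99.73 CPM and the 4-pair difference was 0.46 ± 0.10 (adjusted p = 0.00382).

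Rfc3 and Rfc5, subunits of the clamp loader, differed from each other in Th2. Rfc3 had 38.41, 45.66, 32.57 and 32.74 in Th1, 32.17, 33.16, 52.56 and 56.41 in Th2, and 22.38, 23.73, 32.82 and 32.74 in Th17. Th2 at day 3.5 was the highest group for Rfc3, above every Th1 library, and its Th17 values were low at day 2.5. Rfc5 had 53.4, 100.9, 64.03 and 60.67 in Th1, 35.68, 34.71, 43.14 and 43.29 in Th2, and 24.77, 30.45, 49.82 and 48.04 in Th17. There the Th1 libraries were highest. The day differences were 0.63 ± 0.08 (adjusted p = 0.000223) and 0.56 ± 0.11 (adjusted p = 0.00374). Lig1, the ligase that seals lagging strand fragments, had 191.2, 328.2, 243.1 and 215.2 in Th1, 153.2, 177.3, 202.6 and 224.3 in Th2, and 124.4, 164.6, 208 and 225.1 in Th17. It rose by 0.48 ± 0.08 (adjusted p = 0.00068). Prim1, the catalytic subunit of primase, had 49.5, 78.61, 57.53 and 54.79 in Th1, 42.69, 45.57, 42.72 and 48.82 in Th2, and 32.84, 42.46, 43.17 and 48.04 in Th17. Its Th1 values were above all others, the lowest (49.5) only just above the highest Th2 value (48.82), and its day difference was 0.17 ± 0.08 (adjusted p = 0.112). Pola1 and Pola2 of the primase complex, Rfc4 and the flap nuclease gene Fen1 rose by 0.34, 0.46, 0.36 and 0.59.

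All 4 genes of nucleotide supply rose with day in Th2 and Th17, with the largest median of the 6 roles, 0.73. Rrm2, the regulated subunit of ribonucleotide reductase, had 199.6, 417.4, 196.5 and 185.4 in Th1, 120.4, 160.1, 200.8 and 218.8 in Th2, and 72.21, 110.2, 170 and 191.8 in Th17. In Th17 WT it was 72.21 CPM at day 2.5 and 170 at day 3.5, and the difference was 0.80 ± 0.11 (adjusted p = 0.000556). Tyms, which makes thymidylate, had 19.73, 87.52, 22.43 and 24.93 in Th1, 11.21, 17.5, 24.78 and 27.27 in Th2, and 10.1, 17.16, 26.52 and 20.99 in Th17. The library labelled Th1 NFATc1/ΔS day 2.5 held 87.52 CPM of Tyms and every other library at most 27.27. The day difference of Tyms was 0.85 ± 0.17 (adjusted p = 0.00653). Tk1, the thymidine kinase of the salvage route, had 69.57, 117.9, 70.92 and 67.57 in Th1, 45.51, 53.4, 65.4 and 67.32 in Th2, and 33.89, 39.25, 69.55 and 67.15 in Th17. It rose by 0.66 ± 0.10 (adjusted p = 0.000821), and Rrm1, the other subunit of the reductase, by 0.46.

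The genes that restore chromatin on new DNA rose together, 3 of 3. Uhrf1, which brings the maintenance methyltransferase to new DNA, had 208.5, 357.8, 217.6 and 218.1 in Th1, 137.1, 157.9, 187 and 211.1 in Th2, and 144.1, 146.4, 243.2 and 230.5 in Th17. Its 4 day 3.5 values in Th2 and Th17 started at 187 CPM and its day 2.5 values ended at 157.9. Chaf1a and Chaf1b are subunits of CAF-1, which places histones behind the fork. Chaf1a had 77.35, 148.3, 83.34 and 81.19 in Th1, 55.42, 64.26, 80.62 and 85.83 in Th2, and 44.63, 51.34, 87.95 and 84.85 in Th17. Chaf1b had 30.29, 57.19, 27.37 and 27.87 in Th1, 14.64, 19.72, 21.64 and 23.48 in Th2, and 14.67, 20.3, 28.34 and 29.45 in Th17. The day differences were 0.57 ± 0.07 (adjusted p = 0.000221), 0.66 ± 0.09 (adjusted p = 0.000271) and 0.57 ± 0.11 (adjusted p = 0.00199).

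Of the E2F and cyclin E genes 4 of 5 rose. E2f1, an activating E2F, had 25.81, 42.58, 23.6 and 24.14 in Th1, 24.09, 26.52, 30.71 and 34.11 in Th2, and 16.14, 18.73, 28.34 and 30.34 in Th17. Outside the highest library the Th1 values of E2f1 lay below both Th2 values of day 3.5. E2f2, another activator, had 109, 133.3, 81.07 and 88.37 in Th1, 75.47, 83.9, 78.25 and 101.3 in Th2, and 72.7, 67.84, 89.56 and 113.2 in Th17. It was lower at day 3.5 than at day 2.5 in both Th1 genotypes and higher in both Th17 genotypes. The day differences of E2f1 and E2f2 were 0.55 ± 0.09 (adjusted p = 0.00119) and 0.34 ± 0.10 (adjusted p = 0.0174). E2f8, a repressor that is itself an E2F target, had 37.36, 55.55, 35.82 and 34.94 in Th1, 20.89, 25.78, 30.99 and 31.49 in Th2, and 15.44, 20.67, 30.79 and 34.25 in Th17. It rose by 0.64 ± 0.11 (adjusted p = 0.000969). Ccne1, cyclin E1, had 50.76, 106.5, 45.9 and 41.22 in Th1, 23.63, 20.61, 30.71 and 29.69 in Th2, and 24.77, 24.03, 32.75 and 33.05 in Th17. Ccne2, cyclin E2, had 15.97, 36.1, 16.12 and 13.63 in Th1, 12.2, 12.78, 10.4 and 10.43 in Th2, and 12, 10.07, 13.36 and 10.49 in Th17. All Th1 values lay above all others for both E cyclins, for Ccne2 only just (13.63 against 13.36 in Th17 WT at day 3.5). The E cyclins parted with day: only Ccne1 rose in Th2 and Th17, by 0.44 ± 0.08 (adjusted p = 0.00116), and Ccne2 was at -0.07 ± 0.11 (adjusted p = 0.625).

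**Figure D2:**
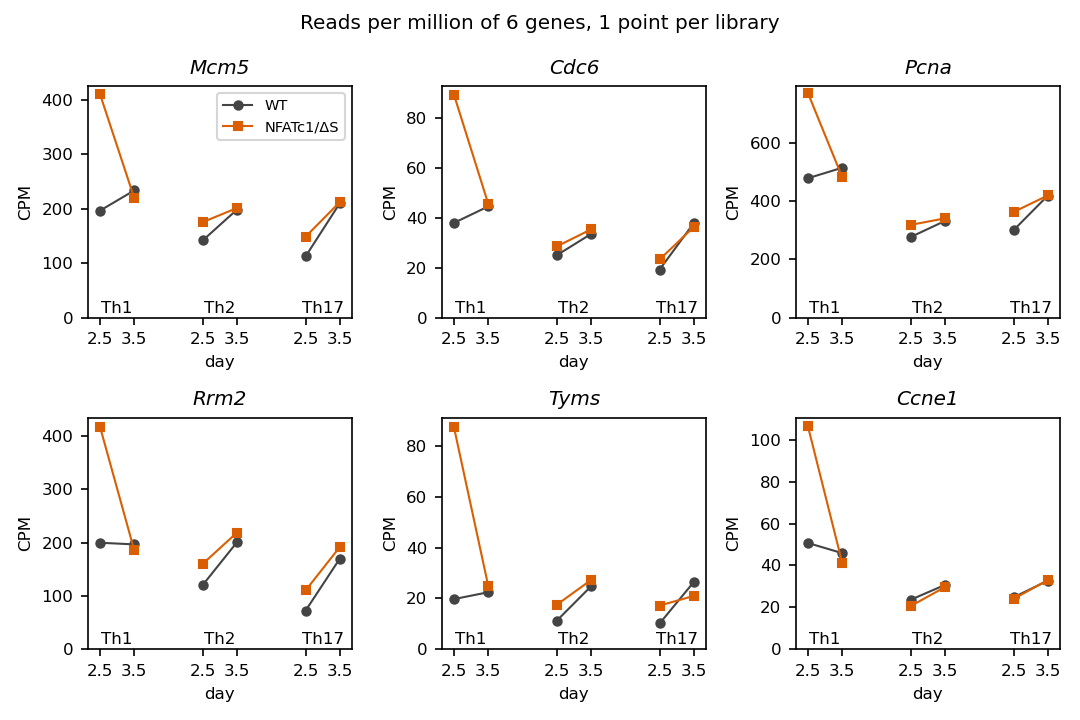
CPM of 6 genes against day, 1 point per library, lines joining the 2 days of a culture and genotype (dark grey circles WT, orange squares NFATc1/ΔS), each axis starting at 0. The Th1 NFATc1/ΔS point at day 2.5 stands above all others in each panel (772.5 for Pcna, 87.52 for Tyms), and Th2 and Th17 lines slope upward.

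The size of the day difference in each culture came from a single fit to the 8 Th2 and Th17 libraries. In Th2 24 of 39 genes rose and 0 fell (median 0.36), where 13.5% of all genes tested rose, with the smallest p for Rfc3 at 0.75 ± 0.10 (adjusted p = 0.000116) and Orc1 at 0.71 ± 0.12 (adjusted p = 0.000797). In Th17 35 rose and 0 fell (median 0.69), where 16.1% of all rose, with the smallest p for Tk1 at 0.89 ± 0.10 (adjusted p = 3e-05) and Chaf1a at 0.84 ± 0.09 (adjusted p = 3.01e-05), and the largest difference for Rrm2 at 1.00 ± 0.11 (adjusted p = 0.000112). Without the Th2 WT pair the Th2 count was 8, and DESeq2 called 10 in Th2. The difference itself, Th17 minus Th2, was above 0 for 36 genes with a median of 0.31, but edgeR called 0 of them (18 at an unadjusted p under 0.05, 0 with DESeq2 and with limma-voom), against 0.573% of all genes called higher. Rfc5 at 0.51 ± 0.15 (adjusted p = 0.136) and Tk1 at 0.46 ± 0.14 (adjusted p = 0.148) were nearest. Without the Th17 NFATc1/ΔS pair 8 were called.

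**Figure D3:**
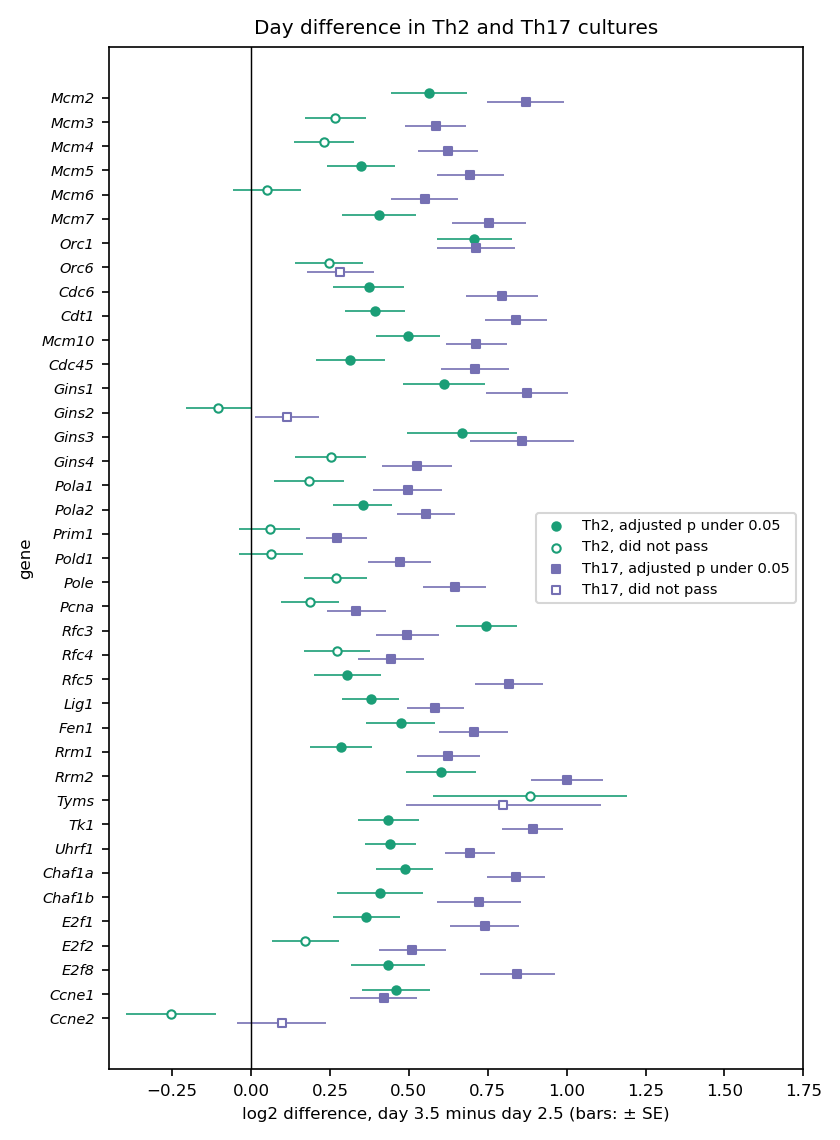
Log2 difference between day 3.5 and day 2.5 for each gene in Th2 (green circles) and Th17 (purple squares), with bars of ± 1 SE from the fit to 8 libraries; filled symbols passed an adjusted p of 0.05. Filled symbols number 24 in Th2 and 35 in Th17, and Ccne2 and Gins2 are open in both cultures.

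Some markers of other cells also moved with day in these cultures. Of 8 B cell markers 7 were tested in the 4 pairs, and 2 fell and 0 rose, where 19.7% of all genes fell and 20.8% rose. Their sum, 74.85 to 124.6 CPM at day 2.5 and 44.59 to 98.84 at day 3.5, was mostly Ighm, which went from 81.7 to 50.9 and from 73.9 to 43.7 CPM in Th2 WT and NFATc1/ΔS, while in Th2 WT Ebf1 (13 and 18.2) and Pax5 (4.27 and 4.82) were higher at day 3.5. Erythroid markers summed to 7.7 to 23.3 CPM at day 2.5 and to 1.605 to 2.869 at day 3.5. Their part in the day difference was not tested. With all 3 cultures in the fit, the day difference over 6 pairs was above 0 for 36 genes (median 0.24), and edgeR called 0 of 39 (1 at an unadjusted p under 0.05, 0 with DESeq2 and with limma-voom) and 0% of all genes. Orc1 was nearest at 0.46 ± 0.19 (adjusted p = 0.449), then Gins3 at 0.44 ± 0.21 (adjusted p = 0.503) and Cdc45 at 0.29 ± 0.16 (adjusted p = 0.569), none of which passed. Without the library labelled Th1 NFATc1/ΔS day 2.5 the count was 2 and the median 0.45, and without the Th17 WT pair the median was 0.11.

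In Th1 the 2 genotypes differed in their course between the days. From day 2.5 to day 3.5 all 39 genes were lower in NFATc1/ΔS, with a median difference of -0.76, and 28 of 39 were higher in WT, with a median of 0.11. These are single pairs with no replicate check. In the 12-library model edgeR called 0 of 39 for day in Th1 (8 at an unadjusted p under 0.05, 0 with DESeq2 and with limma-voom), where 2.7% of all genes fell. The median was -0.36. E2f2 at -0.52 ± 0.15 (adjusted p = 0.0896), Orc6 at -0.63 ± 0.20 (adjusted p = 0.117) and Rfc3 at -0.37 ± 0.13 (adjusted p = 0.137) were nearest. Leaving out either Th1 day 2.5 library leaves a single Th1 pair, with the spread taken from Th2 and Th17, so such fits have no replicate check in Th1. Leaving out the library labelled Th1 NFATc1/ΔS day 2.5 turned the median to 0.11, with 28 genes above 0. The 12-library model called 0 of 39 and 0% of all genes in Th2 (4 at an unadjusted p under 0.05, 1 with DESeq2, 0 with limma-voom). In Th17 it called 0 of 39 and 0% (30 at an unadjusted p under 0.05, 6 with DESeq2, 0 with limma-voom). Without either Th1 day 2.5 library the counts were 23 and 35. The share of all genes called in those refits is not given, so these counts do not set the 39 genes apart. Whether the day difference was equal in the 3 cultures was tested in the 12-library model too. Rfc3 alone was called (edgeR, adjusted p = 0.04), where 4.83% of all genes were, and 11 with DESeq2.

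The question of the study, how NFATc1 without SUMOylation changes T helper cells, was put to these genes in 6 pairs of NFATc1/ΔS and WT libraries. The Th1 pair of day 2.5 stood out, with all 39 genes higher in NFATc1/ΔS by a median of 0.80 (log2), from 0.25 to 2.14. At the same day 34 of 39 were higher in the Th2 pair (median 0.21) and 33 in the Th17 pair (median 0.28). At day 3.5 the medians were -0.08 in Th1 (9 of 39 above 0), 0.09 in Th2 (33) and 0.01 in Th17 (23). The median over all genes tested lay between -0.0141 and 0.0162 in these 6 pairs.

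**Figure D4:**
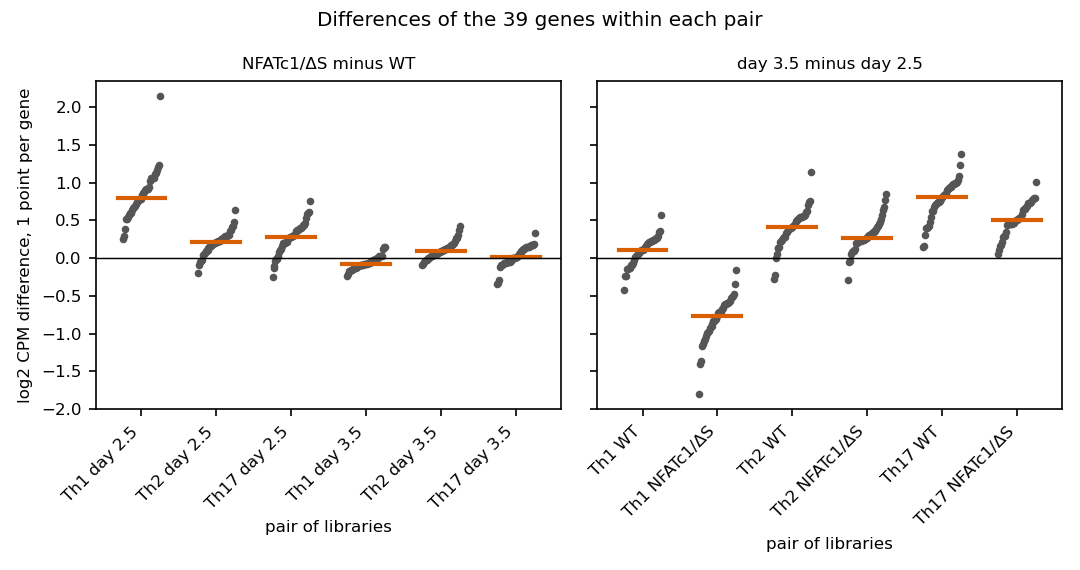
Log2 CPM differences of the 39 genes (1 point per gene, sorted within each pair; orange bars mark medians) for NFATc1/ΔS minus WT, left, and day 3.5 minus day 2.5, right. The Th1 day 2.5 pair lies wholly above 0 with a median of 0.80 on the left, and the Th1 NFATc1/ΔS pair wholly below 0 with a median of -0.76 on the right.

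Over all 6 pairs the fitted genotype difference was above 0 for 39 of 39 genes, with a median of 0.22, but edgeR called 0 (10 at an unadjusted p under 0.05, 0 with DESeq2 and with limma-voom) and 0% of all genes. Gins1 at 0.35 ± 0.13 (adjusted p = 0.823), Rrm2 at 0.37 ± 0.14 (adjusted p = 0.823) and Chaf1b at 0.33 ± 0.12 (adjusted p = 0.823) had the smallest p and did not pass. The Th1 day 2.5 pair moved this median: without that pair it was 0.0991, with 35 genes above 0. In the 4 Th2 and Th17 pairs alone, 35 were above 0 with a median of 0.14, and edgeR again called 0 (19 at an unadjusted p under 0.05, 1 with DESeq2 and 1 with limma-voom), where 0.749% of all genes were called higher. Rrm2 was nearest, higher in NFATc1/ΔS in 4 of 4 pairs, at 0.32 ± 0.08 (adjusted p = 0.0519). It passed with DESeq2 (adjusted p = 0.0268), with limma-voom (0.0467) and with unique reads (0.0284), and with 1 pair left out its adjusted p ran from 0.0334 to 0.23. Pold1 at 0.26 ± 0.07 (adjusted p = 0.0804) and Lig1 at 0.21 ± 0.06 (adjusted p = 0.107), also higher in 4 of 4 pairs, did not pass. Counting with no read filter, edgeR called 5. Markers moved in the same fit, where 1.38% of all genes were called lower. Of those tested, 1 of 7 B cell markers, 1 of 5 CD8 T and NK markers and 1 of 4 Th1 markers fell and 0 rose. Also 2 of 4 Th2 markers and 3 of 5 Th17 markers fell and 0 rose. The part of these markers in the genotype values was not tested.

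Within single cultures the 12-library model called none. The genotype difference had a median of 0.36 in Th1 (39 of 39 above 0), 0.15 in Th2 (36) and 0.13 in Th17 (34), with 0 genes called by edgeR, by DESeq2 and by limma-voom in each, 0 of 39 at an unadjusted p under 0.05 and 0% of all genes called. Tyms at 1.15 ± 0.50 (adjusted p = 0.594), Mcm10 at 0.56 ± 0.25 (adjusted p = 0.594) and Cdc6 at 0.63 ± 0.28 (adjusted p = 0.594) had the smallest p in Th1. Gins1 at 0.46 ± 0.25 (adjusted p = 1) had it in Th2 and Pold1 at 0.32 ± 0.17 (adjusted p = 1) in Th17, with neither passing. A difference between cultures in the genotype effect was called for 0 of 39 genes and 0% of all (edgeR, with 0 at an unadjusted p under 0.05, 0 with DESeq2 and with limma-voom). Without the Th1 day 3.5 pair the Th1 values and the difference between cultures rest on the single Th1 pair of day 2.5, whose median difference was 0.80. Without the Th1 day 2.5 pair the Th1 median turned to -0.0972, with 7 of 39 genes above 0 and 0 called.

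Whether the genotype difference changed with day was fitted with the cultures as replicates. The change was below 0 for 38 of 39 genes, a smaller NFATc1/ΔS excess at day 3.5, with a median of -0.44, but edgeR called 0 of 39 (20 at an unadjusted p under 0.05, 0 with DESeq2 and with limma-voom) and 0% of all genes. Mcm7 at -0.59 ± 0.15 (adjusted p = 0.629), Rrm2 at -0.64 ± 0.18 (adjusted p = 0.629) and Chaf1b at -0.56 ± 0.17 (adjusted p = 0.629) were below 0 in 3 of 3 cultures. In Th2 and Th17 alone the median was -0.21, with 6 genes above 0 and 0 called (13 at an unadjusted p under 0.05, 0 with DESeq2 and with limma-voom), where 0.115% of all genes were called lower. Tyms at -0.81 ± 0.19 (adjusted p = 0.0794) and Mcm2 at -0.41 ± 0.11 (adjusted p = 0.13) were nearest, each below 0 in 2 of 2 cultures. These fits share libraries with the day comparisons above.

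Between cultures, 13 of 39 genes were higher in Th1 than in Th2 and 0 lower (4 libraries each, genotype and day as 4 blocks), where 14.6% of all genes were higher, and the median difference was 0.53. Polymerase and fork genes made up 7 of the 13, licensing and origin firing genes 4, and the MCM helicase and nucleotide supply 0. Pcna at 0.80 ± 0.15 (adjusted p = 0.00493), Gins3 at 1.02 ± 0.25 (adjusted p = 0.0167), Ccne1 at 1.17 ± 0.31 (adjusted p = 0.0223) and Pold1 at 0.43 ± 0.11 (adjusted p = 0.0229) came first, then Pole (0.67), Mcm10 (0.95), Gins4 (0.54) and Rfc5 (0.81), each higher in 4 of 4 blocks. Rfc3 was at -0.18 ± 0.21 (adjusted p = 0.538) and E2f1 at 0.01 ± 0.24 (adjusted p = 0.986). Without the library labelled Th1 WT day 2.5, 2 genes were called, without the NFATc1/ΔS one 10, and with any 1 block left out 1 to 7. Within blocks the median excess of Th1 was 0.53 (WT) and 1.15 (NFATc1/ΔS) at day 2.5 and 0.24 and 0.12 at day 3.5.

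Against Th17, all 39 genes were higher in Th1 with a median of 0.57, but edgeR called 0 (25 at an unadjusted p under 0.05, 14 with DESeq2, 0 with limma-voom), where 1.95% of all genes were higher. Prim1 at 0.52 ± 0.13 (adjusted p = 0.0539), Pcna at 0.57 ± 0.15 (adjusted p = 0.0615) and Rfc5 at 0.89 ± 0.23 (adjusted p = 0.0617) were nearest. Within blocks the median was 0.70 and 1.29 at day 2.5 and 0.09 and 0.01 at day 3.5. Without the library labelled Th1 NFATc1/ΔS day 2.5, 4 genes were called.

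Between Th2 and Th17 a smaller share of the 39 genes than of all genes was called. With 12 libraries edgeR called 0 of 39 (1 at an unadjusted p under 0.05, 1 with DESeq2, 0 with limma-voom), where 12% of all genes differed. In the 8 Th2 and Th17 libraries alone 9 differed, against 41.5% of all genes, with a median of 0.08. Rfc3 at 0.63 ± 0.08 (adjusted p = 0.000103), Orc1 at 0.51 ± 0.10 (adjusted p = 0.00194), Rrm2 at 0.43 ± 0.09 (adjusted p = 0.00396), E2f1 (0.33) and Cdt1 (0.34) were higher in Th2, although Cdt1 did not pass with unique reads (0.23, adjusted p = 0.0954) or without the NFATc1/ΔS day 2.5 block (0.0645), nor E2f1 without that block (0.0633). Mcm10 at -0.35 ± 0.07 (adjusted p = 0.00347), Pcna at -0.23 ± 0.06 (adjusted p = 0.012), Pole (-0.29) and Gins3 (-0.32) were lower in Th2. Pcna did not pass without the WT day 3.5 block (adjusted p = 0.0667) or the NFATc1/ΔS one (0.0572), and Pole without either (0.103 each; -0.18 without the WT block). Gins3 did not pass with RLE scaling (0.0614), with DESeq2 (0.254), with no read filter (0.0701) or without the WT day 2.5 (0.129), WT day 3.5 (0.165) or NFATc1/ΔS day 3.5 block (0.195).

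Other genes of the same pathway were counted in the same fits, where 20.8% of all genes rose and 19.7% fell with day in the 4 pairs, and in Th1 against Th2 14.6% of all genes were higher in Th1 and 14% lower. Of 42 further replication genes 29 rose and 3 fell between the days in the 4 Th2 and Th17 pairs (median 0.33), with the histone chaperone genes Asf1b at 0.79 ± 0.09 (adjusted p = 9.79e-05) and Nasp at 0.60 ± 0.07 (adjusted p = 0.000127) among those that rose. Pold4, a small subunit of polymerase delta, fell, at -0.80 ± 0.06 (adjusted p = 1.77e-05). Of 26 G1 regulators 23 were tested, 8 rose and 4 fell (median 0.14): Cdkn1b, the cyclin-dependent kinase inhibitor p27, was at -0.78 ± 0.06 (adjusted p = 1.78e-05), and Tfdp1, the DNA-binding partner of E2F factors, at 0.54 ± 0.07 (adjusted p = 0.000194). All 22 genes of G2 and mitosis rose (median 0.57), Ccnb1, cyclin B1, at 0.65 ± 0.07 (adjusted p = 6.98e-05). In Th1 against Th2, 19 further replication genes were higher and 0 lower, 4 G1 regulators higher and 5 lower, and 8 genes of G2 and mitosis higher. In the genotype comparison over the 4 pairs Nasp was the one gene of these lists to pass, at 0.26 ± 0.06 (adjusted p = 0.0397).

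The library labelled Th1 NFATc1/ΔS day 2.5 differed from its WT partner in these lists as well, in a single pair with no replicate check. Further replication genes had a median difference of 0.65 (40 of 42 above 0) and genes of G2 and mitosis of 0.18 (15 of 22 above 0). Cdkn1b had 28.56 CPM there and 111.3 to 124.8 in the other Th1 libraries, and Pold4 28.17 against 95.63 to 102.1. Of the Th1 markers Ifng, the main Th1 cytokine, stood at 186 CPM against 38.6 to 53.6, Tbx21 at 66.6 against 34.5 to 45 and Cxcr3 at 12.1 against 1.69 to 6.67. Il12rb2 was lower, at 254 against 335 to 440, and the Th1 marker sum, 518.8 CPM, lay within the 417.8 to 545.5 of the others. Th2 markers summed to 121.5 CPM against 81.71 to 114.7, with Gata3 the largest part (63.7 against 63.2 to 93.6). The Th2 cytokines were higher there: Il4 at 9.24 against 2.71 to 3.97, Il5 at 4.78 against 0.325 to 1.85 and Il13 at 43.8 against 13.5 to 16.8. T cell markers summed to 2239 CPM against 2566 to 2919, and the 8 B cell markers to 69.71 against 21.32 to 53.99, of which Ighm alone was 65.3 against 15.4 to 45.1. The part of cell composition in the Th1 values was not tested.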

How the data were processed

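RNA was measured in 12 libraries, 1 for each culture, genotype and day. The deposited tables hold whole-number read counts per Ensembl gene (total and unique, exon and intron) and exon length, another deposited column, in bases, per the file headers. GRCm38 is named in the submitters' processing notes, and for aligner, counting program and strand setting the sources used here give nothing. Total gene reads, which include reads that map to several places, were tested. In all 41457 genes total gene reads equalled exon plus intron reads.

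Counts were scaled by TMM, filtered by filterByExpr (min.count 10, min.total.count 15, grouped by the factor compared) and tested with edgeR 4.0.16 (robust quasi-likelihood fit, R 4.3.3). Libraries of the same culture and day, or culture and genotype, formed a pair and entered as a block. P values were adjusted by Benjamini-Hochberg over all genes, called at 0.05, and the SE is the size of the log2 difference over the square root of F. CPM are TMM-scaled, and log2 CPM used a prior count of 2. Levels per length are CPM of exon reads per kilobase of exon. Alternatives were RLE scaling in edgeR, DESeq2 1.42.0 with its size factors, limma-voom (limma 3.58.1), no read filter, unique reads, no robust fit, no replicate block, and leaving out each pair, block or Th1 day 2.5 library. Fits to the 8 Th2 and Th17 libraries for day, for genotype by day and for Th2 against Th17, and leaving out the Th1 day 2.5 libraries singly, were added after seeing the data. Scripts were tested on simulated data.

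The 39 genes and all lists were chosen with earlier results of these data known. Values in every library are given for 10 fixed genes and for up to 6 further genes of smallest p in each comparison (3 where none passed), and up to 3 genes are named in each other list. The comparisons share libraries and are not independent of one another. Libraries held 13417121 to 17774400 gene reads.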

Additional observations from a re-analysis of the deposited data

Results flagged for a closer look

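In Th1, 17 genes had 1 library far from the other 3, and in each case it was the library labelled Th1 NFATc1/ΔS day 2.5, the highest. The gap to the nearest other library, over the range of all 4, was above Dixon's critical value for 4 samples. Among the helicase and licensing genes Mcm2 stood at 387 CPM (167.9 to 179.8 in the other Th1 libraries), Mcm7 at 426.7 (239.5 to 263), Cdc6 at 89.29 (37.95 to 45.57), Cdt1 at 102.9 (66.94 to 72.01), Mcm10 at 93.55 (43.17 to 47.21) and Gins1 at 39.11 (18.49 to 20.86). At the fork and in nucleotide supply Pcna stood at 772.5 CPM (479.8 to 515.9), Rrm2 at 417.4 (185.4 to 199.6), Tyms at 87.52 (19.73 to 24.93) and Tk1 at 117.9 (67.57 to 70.92). Of the chromatin genes Uhrf1 stood at 357.8 CPM (208.5 to 218.1), Chaf1a at 148.3 (77.35 to 83.34) and Chaf1b at 57.19 (27.37 to 30.29). Of the E2F and cyclin genes E2f1 stood at 42.58 CPM (23.6 to 25.81), E2f8 at 55.55 (34.94 to 37.36), Ccne1 at 106.5 (41.22 to 50.76) and Ccne2 at 36.1 (13.63 to 16.12). These are 17 of 93 sets of 4 libraries looked at (31 genes in 3 cultures). All 17 share 1 library, so they are not separate events. Dixon's value assumes 4 replicates, but the libraries of a set differ in genotype and day, so no chance rate applies. Some of the 31 genes were chosen by smallest p in these same libraries. How many of all genes the rule would mark in the library labelled Th1 NFATc1/ΔS day 2.5 was not counted. The 17 therefore do not set these genes apart.

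The day difference of Rfc3 differed between the 3 cultures (edgeR, adjusted p = 0.04). It was below 0 in Th1 and above 0 in Th2 and Th17.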

How the results depend on the processing

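No named gene changed direction where either value was called. Medians of comparisons that called 0 genes did change sign: genotype in Th1 (0.36) was -0.0977 without the library labelled Th1 WT day 2.5, -0.0966 without the NFATc1/ΔS one and -0.0972 without their pair, day in Th1 (-0.36) was 0.1094 without the library labelled Th1 NFATc1/ΔS day 2.5 and 0.1114 without its pair, genotype in Th17 was -0.0022 without the Th17 day 2.5 pair, and Th2 against Th17 over 12 libraries was -0.0126 without the WT day 2.5 block. Of the counts of genes called, 209 values stayed within 1.5 times and 53 did not. Of the medians 228 stayed and 6 moved, where stayed means a shift smaller than the SD of the medians of single pairs or blocks. A median that changed sign could therefore count as stayed, as those of genotype and day in Th1 did. Without the replicate block the genotype comparison over 6 pairs still called 0 genes, with a median of 0.23 against 0.22, and the day comparison had a median of 0.11 against 0.24.

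With DESeq2 1 gene was called for genotype in the 4 Th2 and Th17 pairs, 1 for day in Th2 and 6 in Th17 in the 12-library model, 11 for day by cell type, 14 for Th1 against Th17, 1 for Th2 against Th17 and 10 for day in Th2 in the 8-library fit. Limma-voom called 1 for genotype in the 4 pairs. With no read filter the counts were 5 for genotype in the 4 pairs, 1 for day in Th17, 7 for day by cell type, 1 for genotype by day in the 4 pairs and 7 for Th17 minus Th2. Unique reads gave 1 for genotype and 1 for genotype by day in the 4 pairs.

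Without the library labelled Th1 WT day 2.5 the counts were 23 for day in Th2, 35 in Th17 and 2 for Th1 against Th2. Day in Th1 and day by cell type then rest on the single NFATc1/ΔS pair in Th1, with no replicate check there. Without the library labelled Th1 NFATc1/ΔS day 2.5 they were 2 for day over 6 pairs, 1 for day in Th1, 23 in Th2, 35 in Th17, 16 for day by cell type, 4 for Th1 against Th17 and 2 for Th2 against Th17.

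Leaving out 1 pair or block at a time gave 0 to 2 for genotype in the 4 pairs, 0 to 36 in Th1, 0 to 26 for genotype by cell type, 0 to 2 for day over 6 pairs, 0 to 38 for day in Th1, 0 to 23 in Th2, 0 to 35 in Th17, 0 to 38 for day by cell type, 1 to 7 for Th1 against Th2, 0 to 1 for Th2 against Th17, 0 to 1 for genotype by day in the 4 pairs, 8 to 28 for day in Th2 in the 8-library fit and 0 to 8 for Th17 minus Th2. The cause was not tested. The 4-pair day count ran from 30 to 36. The 8-library count for Th2 against Th17, 9, ran from 6 to 9 with 1 block left out.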
